A study of Homo sapiens with 36 samples.

Results

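The genes described here are 10 members of the DNA damage checkpoint: the sensor kinases ATM and ATR, the effector kinases CHEK1 and CHEK2, the inhibitory kinases WEE1 and PKMYT1, the phosphatases CDC25A, CDC25B and CDC25C, and the adaptor TP53BP1. They were chosen by name, and all 10 were found among the 57820 genes of the count table. All 10 passed the filter on low counts in each of the 16 comparisons below.

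ATM is activated at DNA double-strand breaks and ATR at stretches of single-stranded DNA such as those at stalled replication forks. ATM phosphorylates CHEK2 and ATR phosphorylates CHEK1, and these effector kinases restrain the CDC25 phosphatases. WEE1 and PKMYT1 place the inhibitory phosphates on cyclin-dependent kinases and CDC25 phosphatases remove them, so the balance between these enzymes sets when a cell enters S phase and mitosis. TP53BP1 is recruited to chromatin around breaks and takes part in the choice of repair pathway. Platinum drugs form DNA adducts and crosslinks that block replication forks. Much of the control of this pathway is by phosphorylation and protein turnover, which RNA levels do not show.

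RNA was sequenced from A2780 cells, a human ovarian cancer line, in 36 libraries of 12 conditions with 3 libraries each. The sensitive parental cells (wt), their isogenic counterpart made resistant by chronic cisplatin exposure (cis) and a population that grew out of cis cells kept without serine and glycine (cis SSP) each grew in complete medium or in medium lacking serine and glycine (-SG), untreated or treated with carboplatin (carbo). The labels give no time point and a carboplatin dose of 6 M, a unit in doubt because other assays of the study used micromolar doses. The study describes a condition's 3 libraries as technical replicates. Their spread, and every p-value below, therefore leaves out variation between independent cultures. Each line is a single population, and the index names in the library titles of cis SSP cells repeat those of wt cells. In bulk RNA, fewer cells in a cell cycle phase and less RNA per cell cannot be told apart.

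The libraries held 13074937 to 20441582 counts on genes (median 17663486), and the members had between 72 and 5904 counts in a library, which sets their counting error. Libraries 11 (wt -SG carbo), 25 (cis SSP) and 32 (cis SSP -SG) stood apart by transcript length. In them the median of the longest 10% of transcripts minus that of the shortest 10%, each against the other libraries of the condition, was -0.59, -1.50 and -1.51 on the log2 scale, against -0.09 to 0.11 in the 27 libraries of the other 9 conditions. Transcripts of 3 members, ATM, ATR and TP53BP1, are among the longest 10%, so the members' calls in comparisons with these libraries are given with and without them. Other values, such as condition means and those of other genes and gene lists, include these libraries unless stated. In libraries 23 and 24 (cis -SG carbo) 17.9% and 14.9% of the deposited counts lay in the 3 rows that name no gene, against at most 9.31% elsewhere. Of 8 epithelial and Muellerian markers, EPCAM, CDH1, PAX8, WT1 and MUC16 had a mean of at most 1.64 CPM (counts per 1000000 counts on genes) in any condition, and the summed level of the 8 ran from 1.83 in wt to 48.4 in cis -SG cells. PTPRC, a marker of blood cells, had a mean of at most 0.0377 CPM in any condition, while the summed level of 3 markers of other cells (PTPRC, COL1A1 and DCN) ran from 1.82 in cis -SG carbo to 991 in wt -SG carbo cells. COL1A1, a collagen of fibroblasts, made up nearly all of it in wt cells (98.3 to 933 CPM as condition means). In cis SSP cells DCN, a proteoglycan of fibroblasts, was the higher of these, at 20.8 to 24.3 CPM against 9.26 to 17.7 for COL1A1, while DCN had at most 0.73 CPM in wt and cis cells. With library 25 included, both were called higher in cis SSP than in cis cells. The part of these markers in the results was not tested.

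In the GRCh37 build used for counting, ATM (ENSG00000149311.13) lies on the plus strand at chr11:108093771-108239829 and ATR (ENSG00000175054.10) on the minus strand at chr3:142167849-142297575. CHEK1 (ENSG00000149554.8) occupies chr11:125495058-125546150 on the plus strand, and CHEK2 (ENSG00000183765.16) chr22:29083731-29138410 on the minus strand. WEE1 (ENSG00000166483.6) is at chr11:9595217-9615004 on the plus strand, and PKMYT1 (ENSG00000127564.12) at chr16:3018025-3030480 on the minus strand. CDC25A (ENSG00000164045.7) is at chr3:48198636-48229907 and CDC25C (ENSG00000158402.14) at chr5:137620958-137674044, each on the minus strand, while CDC25B (ENSG00000101224.13) is on the plus strand at chr20:3767419-3786768. TP53BP1 (ENSG00000067369.9) is on the minus strand at chr15:43695259-43802926. All are protein-coding genes and the counts are over exons. Exons of TP53BP1 share 3732 bases with TUBGCP4 on the other strand, those of PKMYT1 share 1228 with PAQR4 and 357 with KREMEN2, those of CDC25C share 293 with FAM53C, those of CHEK2 share 293 with HSCB, and those of CHEK1 share 53 with STT3A on its own strand. The strand setting of the counting is not given in the sources used here, so the counts of these members are less certain. CHEK2 also has pseudogene copies, of which CHEK2P2 held 0.203% as many counts as CHEK2.

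Promoter windows of 300 bases, from 250 before to 50 after a start site, were read from RefSeq on the GRCh38.p14 build, a different build from that of the counts. They were present for 8 members in 17 windows, and WEE1 and PKMYT1 had none in the table used here. The 4 windows shown are of CDC25C and CHEK1, the members that fell most with carboplatin in wt cells, of CDC25A, which fell most without serine and glycine, and of ATM, which rose with carboplatin in wt cells. Where a gene has several windows the first is shown, except for CDC25C, where the window was chosen after its matches were seen. Capitals mark matches on either strand to the CCAAT box (CCAAT), to the cell cycle genes homology region or CHR (TTTGAA) and to an E2F site (TTTGGCG or TTTCGCG), letters that are known from promoters of cell cycle genes.
CDC25C, GRCh38.p14 chr5:138331755-138332054, minus strand: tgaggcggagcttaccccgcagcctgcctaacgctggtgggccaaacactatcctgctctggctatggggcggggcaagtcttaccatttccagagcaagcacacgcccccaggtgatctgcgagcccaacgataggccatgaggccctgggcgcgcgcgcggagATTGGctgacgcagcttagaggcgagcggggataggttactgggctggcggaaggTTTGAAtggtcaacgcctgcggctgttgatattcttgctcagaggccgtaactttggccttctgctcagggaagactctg
CHEK1, GRCh38.p14 chr11:125625979-125626278, plus strand: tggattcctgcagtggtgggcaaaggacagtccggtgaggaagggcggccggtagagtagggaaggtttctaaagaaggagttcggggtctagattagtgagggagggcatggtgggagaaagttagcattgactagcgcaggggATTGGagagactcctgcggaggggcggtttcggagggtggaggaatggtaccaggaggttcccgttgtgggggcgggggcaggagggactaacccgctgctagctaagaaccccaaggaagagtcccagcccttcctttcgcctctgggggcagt
CDC25A, GRCh38.p14 chr3:48188368-48188667, minus strand: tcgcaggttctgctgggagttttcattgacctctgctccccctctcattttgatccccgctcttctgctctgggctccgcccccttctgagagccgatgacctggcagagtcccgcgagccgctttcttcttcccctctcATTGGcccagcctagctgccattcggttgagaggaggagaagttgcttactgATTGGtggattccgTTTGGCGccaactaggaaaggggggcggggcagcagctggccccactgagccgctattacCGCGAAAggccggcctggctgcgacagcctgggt
ATM, GRCh38.p14 chr11:108222817-108223116, plus strand: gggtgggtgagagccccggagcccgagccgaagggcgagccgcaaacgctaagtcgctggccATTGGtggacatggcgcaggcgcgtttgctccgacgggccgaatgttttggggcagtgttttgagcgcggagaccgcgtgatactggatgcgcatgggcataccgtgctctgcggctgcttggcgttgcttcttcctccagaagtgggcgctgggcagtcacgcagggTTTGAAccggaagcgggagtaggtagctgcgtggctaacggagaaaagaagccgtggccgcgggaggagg

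Of all 35116 windows in the RefSeq table, 34.6% hold CCAAT, 15.2% hold TTTGAA and 3.19% hold either E2F form. The CDC25C window holds a CCAAT box 85 to 81 bases before the start and a CHR 30 to 25 bases before it. In the CDC25A window there are 2 CCAAT boxes, at 110 to 106 and 58 to 54 bases before the start, and 2 E2F matches, of which the upstream one lies 44 to 38 bases before it. The CHEK1 window has a CCAAT box at 105 to 101 bases and the ATM window one at 188 to 184 bases, with a CHR at 20 to 15 bases. Over the 8 members, CCAAT was in a window of 7, TTTGAA in a window of 2 (ATM and CDC25C) and an E2F form in a window of 2 (CDC25A and CDC25B). These counts are per gene, with a match in any of its windows, while the shares above are per window. No share per gene was taken, so the counts cannot be set against those shares. ATR and a few of the windows of CDC25B and CDC25C held no match. No 2 matches overlapped in the windows printed. A match describes the letters of the window and was not tested as a binding site.

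Levels are in CPM, scaled by the TMM method over the 36 libraries. Per kilobase of transcript and averaged over the 12 conditions, CDC25B was the highest member at 37.9 CPM per kb, followed by CHEK2 at 26.2, TP53BP1 at 19.4, WEE1 at 18.1, PKMYT1 at 17.4, CDC25A at 16.8, CHEK1 at 14.3 and ATM at 12.9. ATR at 8.07 and CDC25C at 7.76 CPM per kb were the lowest. Between the lowest and the highest condition mean, CHEK1 varied most, by 5.08-fold in CPM, followed by CDC25B at 3.96-fold and CDC25C at 3.82-fold. ATM varied least, by 2.04-fold. Its lowest mean, in cis SSP cells, includes library 25 at 60.7 CPM, against 169 and 153 CPM in libraries 26 and 27. Its highest mean, in cis -SG carbo cells, includes libraries 23 and 24.

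**Figure D1:**
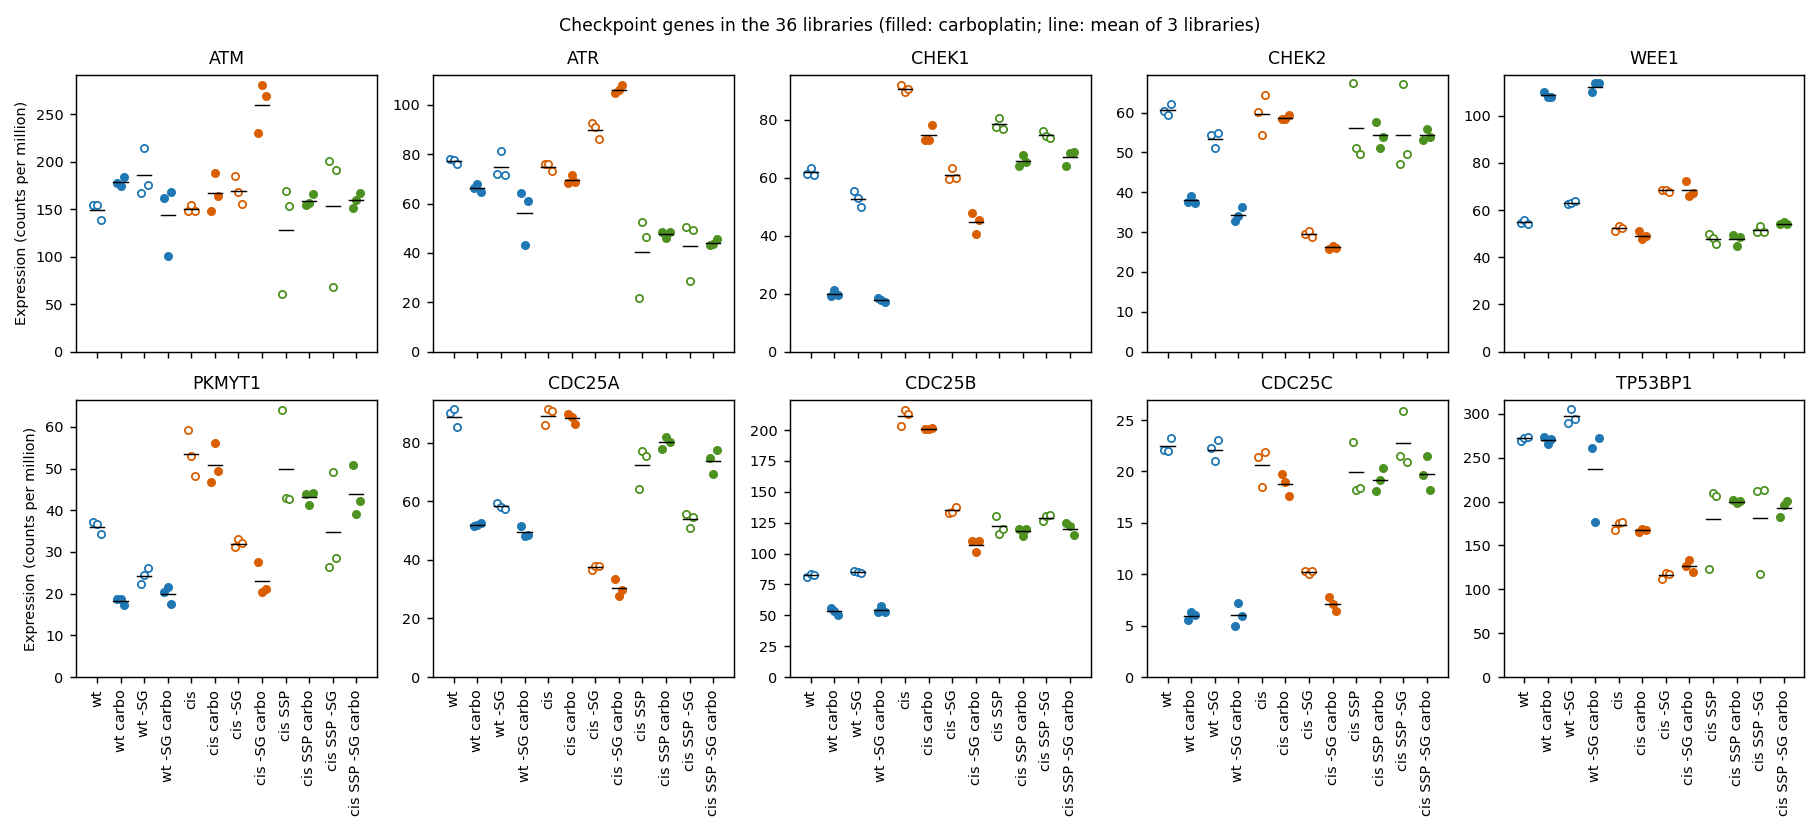
Expression of the 10 checkpoint genes in CPM (y axis, each from 0) in the 36 libraries of the 12 conditions (x axis), where each point is a library, filled points are carboplatin-treated, bars are means of 3 libraries and blue, orange and green are wt, cis and cis SSP cells. WEE1 stands at 108 to 114 in the 6 carboplatin-treated wt libraries and at most 72.3 in the other libraries. The low single points of ATM, ATR and TP53BP1 are libraries 11, 25 and 32. The high single points of CHEK2 and PKMYT1 in cis SSP and cis SSP -SG cells are libraries 25 and 32.

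The first question was how these genes responded to carboplatin in sensitive cells. In wt cells in complete medium, 9 of the 10 members changed (edgeR's quasi-likelihood test, adjusted p under 0.05 over all genes), in a comparison in which 77.8% of all genes tested were called, so the number called says little about the members and their sizes and directions are described. WEE1 and ATM rose, where 38.9% of all genes were called higher, and 7 members fell, where 39% of all genes were called lower. The median log2 fold change of the members was -0.63 against -0.001 over all genes tested.

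Among the inhibitory kinases, WEE1 had 54.6, 55.8 and 54.1 CPM in untreated wt cells and 110, 108 and 108 CPM with carboplatin. The groups did not overlap, and WEE1 rose by 1.01 ± 0.035 on the log2 scale (SE, n = 3 and 3), 2.01-fold (adjusted p = 1.42e-124). PKMYT1, the membrane-bound kinase of the same family, went the other way. It had 37.1, 36.7 and 34.3 CPM without and 18.6, 18.7 and 17.2 CPM with carboplatin, a log2 fold change of -0.97 ± 0.059 (adjusted p = 5.14e-52). Both genes separated treated from untreated libraries, in opposite directions.

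All 3 CDC25 phosphatases fell. CDC25C, which acts at the entry into mitosis, had 22.1, 22 and 23.3 CPM without and 5.52, 6.34 and 6 CPM with carboplatin. Its log2 fold change of -1.90 ± 0.086, 3.74-fold lower, was the largest among the members (adjusted p = 2.62e-84). CDC25A, which acts at the start of S phase as well as at mitosis, went from 90, 91.4 and 85.4 to 51.7, 51.9 and 52.5 CPM (-0.76 ± 0.037, adjusted p = 3.02e-73). CDC25B, an activator of cyclin B kinase before mitosis, went from 80.7, 83.5 and 82.3 to 55.7, 53.6 and 50.5 CPM (-0.61 ± 0.038, adjusted p = 7.13e-50). No treated library reached an untreated one for any of the 3 genes.

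The effector kinases fell and the sensor kinases moved little. CHEK1, the effector of ATR, had 61.4, 63.4 and 61.1 CPM in untreated and 19, 21.2 and 19.4 CPM in treated wt cells, 3.08-fold lower (log2 fold change -1.62 ± 0.051, adjusted p = 9.53e-145). CHEK2, the effector of ATM, went from 60.4, 59.4 and 62.1 to 37.6, 39.1 and 37.2 CPM (-0.66 ± 0.044, adjusted p = 1.34e-44). ATR went from 78.2, 77.5 and 76 to 66.5, 68.1 and 64.8 CPM (-0.20 ± 0.036, adjusted p = 1.07e-07). ATM rose from 154, 154 and 139 to 178, 175 and 184 CPM (0.28 ± 0.026, adjusted p = 3.89e-23). TP53BP1 had 269, 272 and 274 CPM without and 274, 266 and 271 CPM with carboplatin, so its libraries overlapped, with a log2 fold change of 0.01 ± 0.022 (adjusted p = 0.683). Scaling by total counts turned this value to -0.056, past the threshold.

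Other genes of the checkpoint moved in the same libraries, where 38.9% of all genes were called higher and 39% lower. CDKN1A, the p53 target that inhibits cyclin-dependent kinases, rose from 140, 144 and 138 to 1775, 1781 and 1754 CPM (log2 fold change 3.67 ± 0.021). All 10 genes of the list of p53 and its targets rose, with a median of 1.85. Of the 9 cyclins, cyclin-dependent kinases and mitotic kinases, 7 fell and 1 rose: CCNB2, a mitotic cyclin, fell most (-2.79 ± 0.053, adjusted p = 1.53e-260) and CCNE1, the cyclin of S phase entry, rose (0.16 ± 0.038, adjusted p = 6.54e-05). CDK1, the kinase that WEE1 and PKMYT1 inhibit, fell by 1.20 ± 0.026 on the log2 scale (adjusted p = 9.62e-232), and its partner CCNB1 changed by -1.65 ± 0.027 (adjusted p = 2.07e-301).

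Of 13 genes of ATR activation, 12 fell, led by RPA3, a subunit of the single-strand binding protein (-1.37 ± 0.061, adjusted p = 9.87e-86), and HUS1, of the clamp that loads at damage, rose (0.72 ± 0.057, adjusted p = 3e-33). Of 9 genes of ATM activation and break signalling, 8 fell and RAD50 rose (0.08 ± 0.03, adjusted p = 0.00854). Of 10 14-3-3 and ubiquitin ligase genes, 6 rose and 4 fell, where 38.9% of all genes were called higher and 39% lower. YWHAG (0.79 ± 0.019) and YWHAE (-0.47 ± 0.019) were at the ends. All 12 G2/M genes fell (median -2.04), KIF20A most (-3.17 ± 0.049), and 11 of 12 S phase genes fell (median -1.03), MCM2 most (-1.58 ± 0.026), while PCNA rose (0.39 ± 0.022). The cell cycle lists thus moved beside the members, and their part in the members' changes was not tested.

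**Figure D2:**
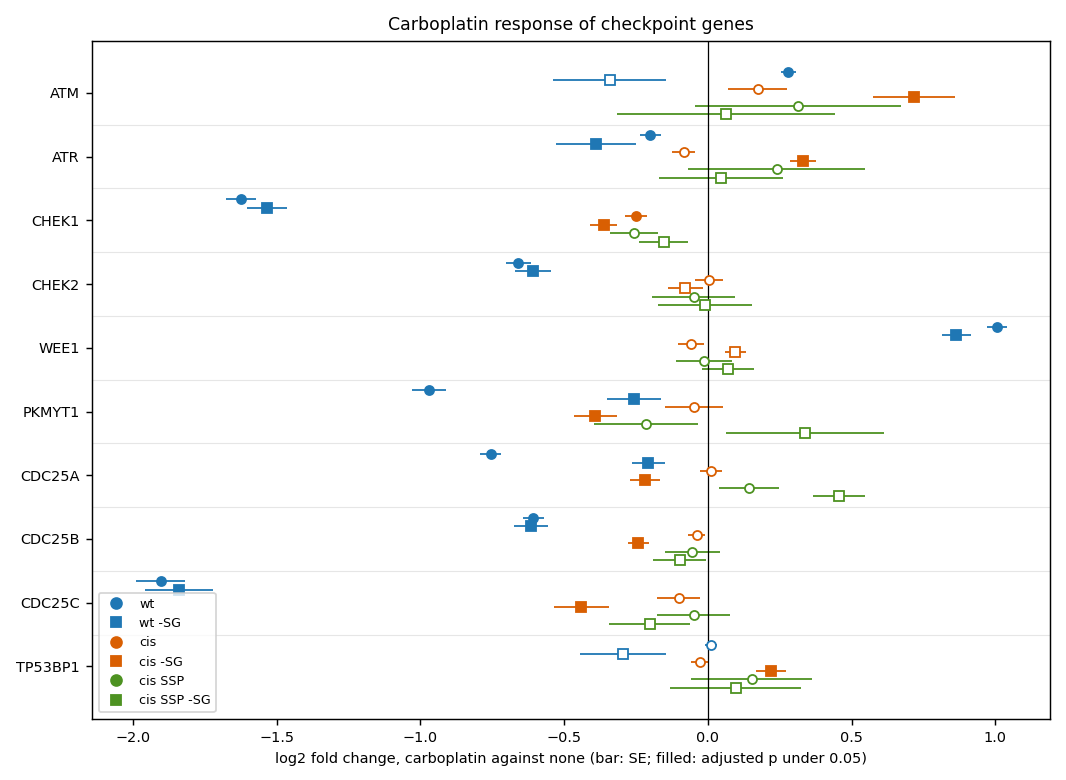
Log2 fold change with carboplatin (x axis, bars are SE, n = 3 and 3 libraries) of the 10 checkpoint genes (y axis) in wt, cis and cis SSP cells in complete medium (circles) and without serine and glycine (squares); filled symbols passed an adjusted p of 0.05. The wt values of CHEK1 (-1.62 and -1.53), CDC25C (-1.90 and -1.84) and WEE1 (1.01 and 0.86) lie far from those of cis and cis SSP cells. The longest bars of ATM and of ATR are those of comparisons with libraries 11, 25 or 32. ATM also has an SE of 0.14 in cis -SG and 0.10 in cis cells, where these libraries take no part.

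The next comparison asked whether resistant cells gave the same response to the same labelled dose. The study reports that cis cells need more carboplatin than wt cells for the same loss of growth, with cis SSP cells between them. Differences between lines below are therefore at equal dose and not at equal effect on growth. In cis cells in complete medium 1 of the 10 members changed, where 20.1% of all genes were called, 9.27% higher and 10.8% lower. Fits with a library left out called 1 to 2 members, so the number called says little about the members. CHEK1 had 91.9, 89.7 and 90.5 CPM without and 73, 73.1 and 78.1 CPM with carboplatin, a fall of 0.25 ± 0.039 on the log2 scale (adjusted p = 2.03e-05). WEE1 stood at 51.2, 53.4 and 52.3 CPM without and 50.9, 47.9 and 48.9 CPM with carboplatin (-0.06 ± 0.046, adjusted p = 0.411). CDC25C had 21.4, 18.5 and 21.9 CPM without and 19.8, 19 and 17.6 CPM with it (-0.10 ± 0.076, adjusted p = 0.382). The log2 fold changes of the other 7 members lay between -0.08 (ATR) and 0.17 (ATM). In the same libraries CDKN1A rose from 91.3, 92.9 and 92.8 to 320, 323 and 323 CPM (1.83 ± 0.03), 9 of 10 p53 genes rose, and 9 of 12 G2/M genes fell with a median of -0.20.

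The difference between the lines was tested as an interaction, that is, the log2 fold change of cis minus that of wt cells. It passed for 8 of the 10 members, where 57.6% of all genes were called, 30.3% higher and 27.2% lower. CDC25C (1.81 ± 0.12, adjusted p = 9.58e-21) and CHEK1 (1.38 ± 0.063, adjusted p = 2.34e-27) had the largest positive differences. CHEK1 fell in both lines, and CDC25C fell in wt cells and was not called in cis cells. The differences of PKMYT1 (0.93), CDC25A (0.77), CHEK2 (0.67), CDC25B (0.57) and ATR (0.12) were positive too. These 5 fell in wt cells and were not called in cis cells. For WEE1 the difference was -1.06 ± 0.056 (adjusted p = 1.9e-24), so its response was lower in cis cells. ATR was close to the threshold, with an adjusted p of 0.0492 that was lost in 10 of the 12 fits with a library left out. The difference did not pass for ATM (-0.10 ± 0.12, adjusted p = 0.502) or TP53BP1 (-0.03 ± 0.038, adjusted p = 0.492).

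Carboplatin was also given to cells without serine and glycine. In wt -SG cells 8 of the 10 members changed and 68.9% of all genes were called. WEE1 rose, where 34.3% of all genes were called higher, and 7 members fell, where 34.6% were called lower. WEE1 had 62.6, 63 and 63.8 CPM without and 110, 114 and 114 CPM with carboplatin (0.86 ± 0.051, adjusted p = 4.29e-07). CDC25C had 22.3, 21 and 23.1 CPM without and 4.93, 7.16 and 5.93 CPM with it (-1.84 ± 0.12, adjusted p = 7.74e-07), and CHEK1 went from 55.4, 53 and 49.9 to 18.5, 17.9 and 17.1 CPM (-1.53 ± 0.07, adjusted p = 8.45e-08). CHEK2 (-0.61), CDC25B (-0.62), ATR (-0.39), PKMYT1 (-0.26) and CDC25A (-0.21) fell as well.

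Library 11 belongs to this comparison. Treated libraries had 162, 101 and 168 CPM for ATM and 261, 177 and 273 CPM for TP53BP1, and the low value is library 11 in each case. With it ATM had a log2 fold change of -0.34 ± 0.2 (adjusted p = 0.161) and TP53BP1 one of -0.29 ± 0.15 (adjusted p = 0.118). Without it 73.3% of all genes were called, ATM remained uncalled (-0.14 ± 0.14, adjusted p = 0.418) and TP53BP1 fell (-0.12 ± 0.034, adjusted p = 0.00405), so that 9 members changed. ATR, at 64.1, 43.3 and 61 CPM with carboplatin, went from -0.39 with library 11 to -0.23 ± 0.059 without it (adjusted p = 0.00272). The call of PKMYT1 was lost without library 8, 9, 10 or 12, and that of ATR without library 7 or 8.

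The response of wt cells without serine and glycine differed from that in complete medium for 2 members, where 27.7% of all genes were called and 14.6% were higher. PKMYT1 and CDC25A fell less, with interaction values of 0.71 ± 0.11 (adjusted p = 1.84e-04) and 0.54 ± 0.065 (adjusted p = 1.6e-05). These genes started lower: CDC25A had 59.3, 58 and 57.5 CPM in wt -SG cells and 51.7, 48 and 48.6 CPM after carboplatin, and PKMYT1 went from 22.4, 24.5 and 26.1 to 20.5, 21.6 and 17.6 CPM. Between the media, the treated libraries overlapped for PKMYT1 and lay within a few CPM of each other for CDC25A, while the untreated libraries of both genes did not overlap. Without library 11, 34.2% of all genes and 4 members were called. PKMYT1 (0.65 ± 0.1, adjusted p = 4.08e-06) and CDC25A (0.57 ± 0.062, adjusted p = 1.51e-09) kept their calls in that fit. WEE1 went from -0.15 (adjusted p = 0.0569) to -0.15 ± 0.052 (adjusted p = 0.0175) and TP53BP1 from -0.31 (adjusted p = 0.241) to -0.14 ± 0.037 (adjusted p = 0.00385), and both were called lower.

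In cis -SG cells carboplatin changed 8 of the 10 members, where 22.5% of all genes were called. The members were chosen with earlier results of these data known, and fits with a library left out called 6 to 8. The number called is therefore not read as a result about the members. ATM, ATR and TP53BP1 rose, where 10.9% of all genes were called higher, and CHEK1, PKMYT1, CDC25A, CDC25B and CDC25C fell, where 11.6% were called lower. ATM had 185, 168 and 155 CPM without and 230, 281 and 269 CPM with carboplatin (0.72 ± 0.14, adjusted p = 0.0301), the highest level of ATM in any condition. ATR went from 92.5, 91 and 86.2 to 105, 106 and 108 CPM (0.33 ± 0.046, adjusted p = 2.52e-04), and TP53BP1 from 112, 118 and 117 to 126, 133 and 120 CPM (0.22 ± 0.052, adjusted p = 0.0118). CDC25C went from 10.3, 10 and 10.3 to 7.76, 7.06 and 6.43 CPM (-0.44 ± 0.096, adjusted p = 0.00544). PKMYT1 (-0.39), CHEK1 (-0.36), CDC25B (-0.24) and CDC25A (-0.22) fell by less.

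The treated group holds libraries 23 and 24, and its fold changes were also taken with library 22 as the only treated one, a fit in which that library is assumed to vary like the untreated ones. Then 4 members were called, where 14.5% of all genes were. ATR (0.24, adjusted p = 2.45e-04), TP53BP1 (0.14, adjusted p = 0.027), CHEK1 (-0.33, adjusted p = 3.88e-05) and CDC25B (-0.27, adjusted p = 7.52e-06) passed, and ATM (0.46 ± 0.12, adjusted p = 0.166) did not. ATM also lost its call without library 20, 21, 23 or 24 alone, CDC25A without library 21 or 24 and TP53BP1 without library 19.

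The response of cis cells without serine and glycine minus that with them passed for 4 members, where 12.1% of all genes were called, 5.91% higher and 6.17% lower. ATR (0.42 ± 0.06, adjusted p = 2.77e-05) and TP53BP1 (0.25 ± 0.06, adjusted p = 0.00663) were higher, and CDC25A (-0.22 ± 0.064, adjusted p = 0.0201) and CDC25B (-0.20 ± 0.047, adjusted p = 0.00508) lower, without serine and glycine. The calls of ATR and CDC25B held in each of the 12 fits with a library left out, while that of CDC25A was lost without library 16 and that of TP53BP1 without library 18 or 19. These fits called 3 to 8 members, 8 of them without library 22 and 3 without library 16 or 19. With libraries 23 and 24 left out, 8.72% of all genes and 2 members were called, ATR (0.31 ± 0.065, adjusted p = 0.00139) and CDC25B (-0.24 ± 0.054, adjusted p = 0.00217), whereas CDC25A (-0.17, adjusted p = 0.188) and TP53BP1 (0.16, adjusted p = 0.0658) were not. One fit over the 36 libraries called 0 members, with adjusted p from 0.22 (CDC25A) to 0.987 (CHEK2).

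In cis SSP cells no member was called with carboplatin by edgeR's quasi-likelihood test. In complete medium 2.72% of all genes were called, 1.97% higher, and 1 member had an unadjusted p under 0.05, while DESeq2 called 0 members. Without serine and glycine 1.47% of all genes were called, 1.17% higher, 1 member had an unadjusted p under 0.05, and DESeq2 called 1. CHEK1 had 77.6, 80.7 and 76.9 CPM without and 64, 67.9 and 65.5 CPM with carboplatin in complete medium, so the groups did not overlap (-0.26 ± 0.085, adjusted p = 0.201). WEE1 stood at 49.9, 48 and 45.6 CPM without and 49.6, 44.6 and 48.4 CPM with it (-0.01 ± 0.096, adjusted p = 0.954). CDKN1A rose from 64.9, 56.6 and 54.6 to 385, 389 and 371 CPM in these libraries (2.70 ± 0.11, adjusted p = 0.00107).

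These comparisons contain libraries 25 and 32. Without library 25, 41.2% of all genes were called in complete medium, and of the members CHEK1 fell (-0.26 ± 0.043, adjusted p = 1.61e-05) with no other member called. The log2 fold changes of the other 9 members then lay between -0.06 (TP53BP1) and 0.11 (CHEK2). Without library 32, 41.1% of all genes were called without serine and glycine, and 7 members with them. PKMYT1 (0.70 ± 0.12, adjusted p = 0.0021) and CDC25A (0.44 ± 0.048, adjusted p = 3.97e-07) rose with carboplatin in that fit, and CHEK2 too (0.19, adjusted p = 0.00577). ATM (-0.28, adjusted p = 5.28e-06), ATR (-0.16, adjusted p = 0.018), CHEK1 (-0.14, adjusted p = 0.0207) and TP53BP1 (-0.12, adjusted p = 0.00951) fell. For CDC25A the untreated libraries had 55.6, 51 and 54.7 CPM and the treated ones 74.7, 69.2 and 77.6 CPM, with no overlap even with library 32 included. With library 32 its log2 fold change was 0.46 ± 0.09 and not called (adjusted p = 0.0807). In wt cells in the same medium CDC25A had -0.21, and the difference between these lines was not tested.

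The response of cis SSP minus that of cis cells in complete medium was called for 0 of the 10 members by edgeR's quasi-likelihood test, where 0.506% of all genes were called. No member had an unadjusted p under 0.05, and DESeq2 called 0. The standard errors were wide for long transcripts, 0.40 for ATM and 0.33 for ATR against 0.084 for CHEK1, whose difference was -0.004. Leaving out any of the 12 libraries, 25 included, gave no call. Without library 25, 14.3% of all genes and 0 members were called, and the standard errors of ATM and ATR were 0.13 and 0.068.

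The second treatment was serine and glycine deprivation. In wt cells 6 of the 10 members changed, where 49.2% of all genes were called, 24.1% higher and 25.1% lower. CDC25A went from 90, 91.4 and 85.4 CPM in complete medium to 59.3, 58 and 57.5 CPM (-0.60 ± 0.038, adjusted p = 8.95e-11), and PKMYT1 from 37.1, 36.7 and 34.3 to 22.4, 24.5 and 26.1 CPM (-0.56 ± 0.06, adjusted p = 1.64e-07). Both fell without overlap. CHEK1 (-0.21 ± 0.043) and CHEK2 (-0.17 ± 0.043) fell by less, and WEE1 (0.22 ± 0.039) and TP53BP1 (0.14 ± 0.027) rose. CDC25C had 22.1, 22 and 23.3 CPM with and 22.3, 21 and 23.1 CPM without serine and glycine (-0.02 ± 0.063, adjusted p = 0.866), so its libraries overlapped. ATM (0.33 ± 0.12, adjusted p = 0.0858), CDC25B (0.06 ± 0.035, adjusted p = 0.152) and ATR (-0.03 ± 0.044, adjusted p = 0.62) did not pass.

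In cis cells all 10 members changed with deprivation, where 75% of all genes were called. WEE1, ATR and ATM rose, where 37.6% of all genes were called higher, and the other 7 fell, where 37.4% were called lower. CDC25A fell most, from 85.9, 91.4 and 90.7 to 36.4, 37.9 and 38 CPM (-1.23 ± 0.044, 2.34-fold lower, adjusted p = 2.71e-28). CHEK2 went from 60.2, 54.4 and 64.4 to 29.5, 30.2 and 28.8 CPM (-0.99 ± 0.055, adjusted p = 5.3e-20), and CDC25C from 21.4, 18.5 and 21.9 to 10.3, 10 and 10.3 CPM (-0.98 ± 0.082, adjusted p = 7.28e-15). No library without serine and glycine reached one in complete medium for these 3 genes.

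PKMYT1 went from 59.2, 53 and 48.3 to 31.1, 33 and 32.1 CPM in cis cells (-0.71 ± 0.059, adjusted p = 4.03e-12), and CDC25B from 203, 216 and 213 to 133, 134 and 138 CPM (-0.62 ± 0.032, adjusted p = 3.29e-22). TP53BP1 went from 167, 176 and 177 to 112, 118 and 117 CPM (-0.56 ± 0.033, adjusted p = 8.52e-20), and CHEK1 from 91.9, 89.7 and 90.5 to 59.7, 63.5 and 60 CPM (-0.54 ± 0.04, adjusted p = 1.13e-16). WEE1 rose from 51.2, 53.4 and 52.3 to 68.7, 68.6 and 67.7 CPM (0.41 ± 0.043, adjusted p = 7.45e-12). ATR rose from 75.9, 76 and 73.1 to 92.5, 91 and 86.2 CPM (0.29 ± 0.039, adjusted p = 9.51e-09). ATM, with 148, 154 and 148 CPM in complete medium and 185, 168 and 155 CPM without serine and glycine, rose by 0.20 ± 0.058 (adjusted p = 0.012), a call that was lost without library 15 or 20.

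In the same cis libraries all 9 cyclins, cyclin-dependent kinases and mitotic kinases fell (median -1.20), as did all 12 G2/M genes (median -1.19). Of 12 S phase genes, 10 fell (median -0.40). In this comparison 37.4% of all genes were called lower. CDK1 fell by 1.03 ± 0.036 and CCNB1 by 1.20 ± 0.033 on the log2 scale, while CDKN1A rose by 0.77 ± 0.034. In wt cells, where 25.1% of all genes were called lower, 11 of 12 G2/M genes fell with a smaller median of -0.30. CDK1 fell by 0.11 ± 0.027 and CCNB1 by 0.39 ± 0.03 there. The part of these lists in the members' changes was not tested.

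The difference between the deprivation responses of cis and wt cells passed for 8 of the 10 members, where 54% of all genes were called, 27.1% higher and 26.9% lower. The values were most negative for CDC25C (-0.95 ± 0.1, adjusted p = 4.96e-10), CHEK2 (-0.80 ± 0.072, adjusted p = 4.54e-12), TP53BP1 (-0.68 ± 0.042, adjusted p = 1.78e-16), CDC25B (-0.66 ± 0.046, adjusted p = 3.08e-15) and CDC25A (-0.62 ± 0.057, adjusted p = 9.32e-12). CHEK1 also fell more in cis cells (-0.31 ± 0.057, adjusted p = 1.52e-05). ATR (0.33 ± 0.058, adjusted p = 7.61e-06) and WEE1 (0.21 ± 0.055, adjusted p = 0.00137) had positive differences, where WEE1 rose in both lines and ATR in cis cells but not, by its test, in wt cells. These 8 calls held in each of the 12 fits with a library left out. PKMYT1 (-0.13 ± 0.091, adjusted p = 0.236) and ATM (-0.12 ± 0.14, adjusted p = 0.542) did not pass.

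In cis SSP cells, which had been selected without serine and glycine, no member was called with deprivation by edgeR's quasi-likelihood test. Over all genes 0.0218% were called, 1 member had an unadjusted p under 0.05, and DESeq2 called 0 members. With libraries 25 and 32 left out, 35.9% of all genes and 5 members were called. CDC25A had 64.1, 77.2 and 75.5 CPM in complete medium and 55.6, 51 and 54.7 CPM without serine and glycine, so its libraries did not overlap even with libraries 25 and 32 included. Its log2 fold change was -0.44 ± 0.13 (adjusted p = 0.511) with them and -0.48 ± 0.049 (adjusted p = 9.22e-09) without them. PKMYT1 had 64.1, 43 and 42.8 CPM in complete medium and 26.3, 49.3 and 28.6 CPM without serine and glycine, where 64.1 and 49.3 are libraries 25 and 32, and fell without these libraries (-0.65 ± 0.063, adjusted p = 3.14e-09). ATM (0.28 ± 0.043), CDC25C (0.20 ± 0.079) and CDC25B (0.11 ± 0.038) were called higher in that fit. CHEK1 (-0.08 ± 0.047), CHEK2 (-0.07 ± 0.055), WEE1 (0.11 ± 0.055), ATR (0.004) and TP53BP1 (0.02) were not.

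**Figure D3:**
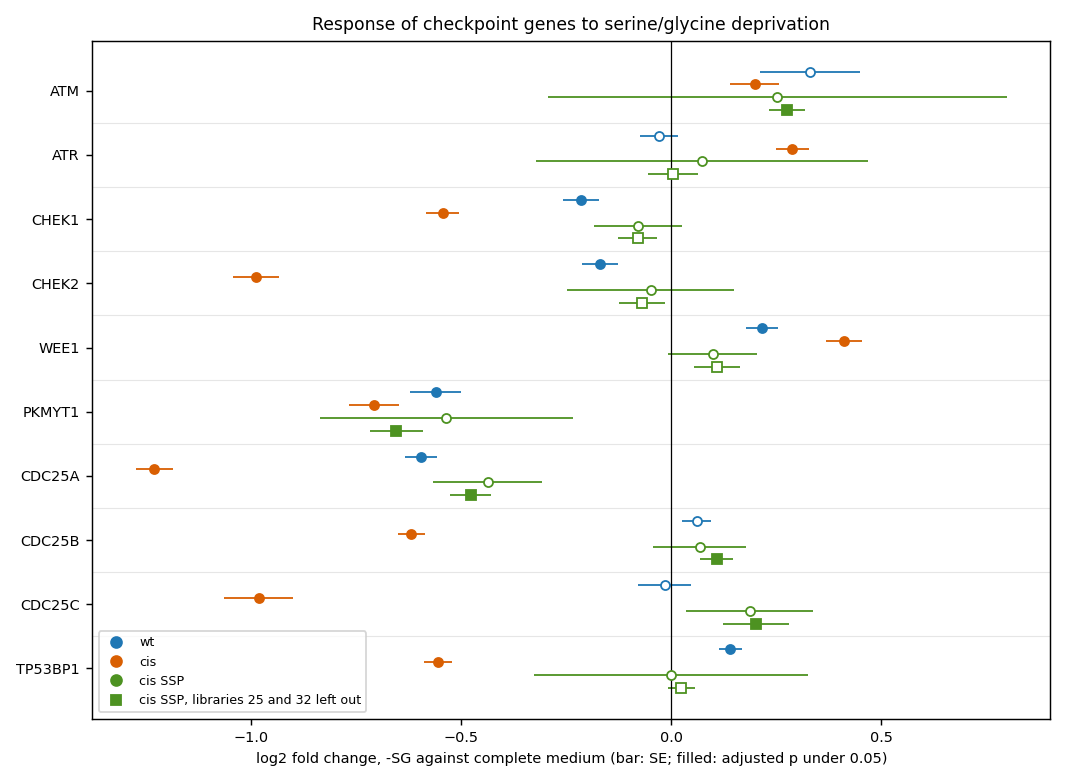
Log2 fold change without against with serine and glycine (x axis, bars are SE) of the 10 checkpoint genes (y axis) in wt, cis and cis SSP cells, the last also with libraries 25 and 32 left out; filled symbols passed an adjusted p of 0.05. CDC25A and PKMYT1 lie below 0 in each line, while CDC25C lies at -0.98 in cis cells and at -0.02 in wt cells.

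The lines were also compared with each other in complete medium without carboplatin. Between cis and wt cells 6 of the 10 members differed, where 78.5% of all genes were called. CDC25B, PKMYT1 and CHEK1 were higher in cis cells, where 39.4% of all genes were called higher, and TP53BP1, CDC25C and WEE1 were lower, where 39.1% were called lower. CDC25B had 80.7, 83.5 and 82.3 CPM in wt and 203, 216 and 213 CPM in cis cells, 2.51-fold higher (log2 fold change 1.33 ± 0.031, adjusted p = 1.59e-35). PKMYT1 had 37.1, 36.7 and 34.3 CPM in wt and 59.2, 53 and 48.3 CPM in cis cells (0.53 ± 0.064, adjusted p = 3.63e-07), and CHEK1 61.4, 63.4 and 61.1 CPM in wt and 91.9, 89.7 and 90.5 CPM in cis cells (0.52 ± 0.038, adjusted p = 9.92e-17). TP53BP1 had 269, 272 and 274 CPM in wt and 167, 176 and 177 CPM in cis cells (-0.68 ± 0.027, adjusted p = 1.68e-26).

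Smaller differences were found for 2 members. CDC25C (-0.16 ± 0.068, adjusted p = 0.0285) and WEE1 (-0.10 ± 0.043, adjusted p = 0.0325) were lower in cis cells, and each lost its call in 2 of the 6 fits with a library left out, CDC25C without library 14 or 3 and WEE1 without library 13 or 2. CDC25A (-0.02), CHEK2 (-0.06), ATM (-0.02) and ATR (-0.07) did not pass. CDK1 was lower in cis cells (-0.71 ± 0.028) while CCNB1 differed by -0.06 ± 0.027. Of the G2/M genes 8 were higher and 4 lower, where 39.4% of all genes were called higher and 39.1% lower.

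Between cis SSP and cis cells 29.1% of all genes were called, 13.3% lower, and 1 member, CDC25B, was called, lower in cis SSP cells. Its libraries had 203, 216 and 213 CPM in cis and 130, 116 and 120 CPM in cis SSP cells (-0.77 ± 0.094, adjusted p = 0.002). Without library 25, 65.4% of all genes and 9 of the 10 members were called, CDC25B at -0.79 ± 0.036 (adjusted p = 7.17e-20) among them. ATR was lower in cis SSP cells in that fit (-0.56 ± 0.053, adjusted p = 4.32e-11), with 75.9, 76 and 73.1 CPM in cis and 52.7 and 46.3 CPM in libraries 26 and 27. TP53BP1 was higher (0.30 ± 0.034, adjusted p = 1.23e-09), with 210 and 206 CPM in these 2 libraries against 167 to 177 CPM in cis cells. ATM was higher (0.14 ± 0.04, adjusted p = 0.00323), while with library 25 its value was -0.21 ± 0.37 (adjusted p = 0.702). PKMYT1 (-0.27), CHEK2 (-0.20), CDC25A (-0.19), CHEK1 (-0.16) and WEE1 (-0.12) were called lower without library 25, and CDC25C (-0.13 ± 0.082, adjusted p = 0.18) was not. ATR also stood at 43.2 to 50.4 CPM in the other cis SSP libraries apart from library 32, below the 64.8 to 108 CPM of wt and cis libraries other than those of wt -SG carbo.

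CDC25B lies near the end of chromosome 20, and the genes around it moved with it. Of 60 other genes within 5 Mb with a mean of at least 1 CPM, 55 were higher in cis than in wt cells, and their median was 0.70 on the log2 scale. In cis SSP against cis cells, a comparison that shares the cis libraries, 51 of the 60 were lower and the median was -0.56. The cis SSP values of neighbouring genes, here and below, include library 25 and are not given without it. Along chromosome 20 of GRCh37, the median in cis against wt cells was 0.68 for 48 genes from 0 to 5 Mb and 0.77 for 12 genes from 5 to 10 Mb. In the 11 further stretches of 5 Mb to the end of the chromosome it lay between -0.23 and 0.28. In cis SSP against cis cells the medians were -0.55 and -0.70 in the first 10 Mb and -0.60 for 8 genes from 10 to 15 Mb, and beyond that between -0.22 and 0.35. For the other 9 members the genes within 5 Mb had medians between -0.37 (ATM) and 0.19 (CHEK1) in cis against wt cells, and between -0.22 (ATR) and 0.21 (PKMYT1) in cis SSP against cis cells. Copy number was not measured in these libraries, and its part in the values was not tested.

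**Figure D4:**
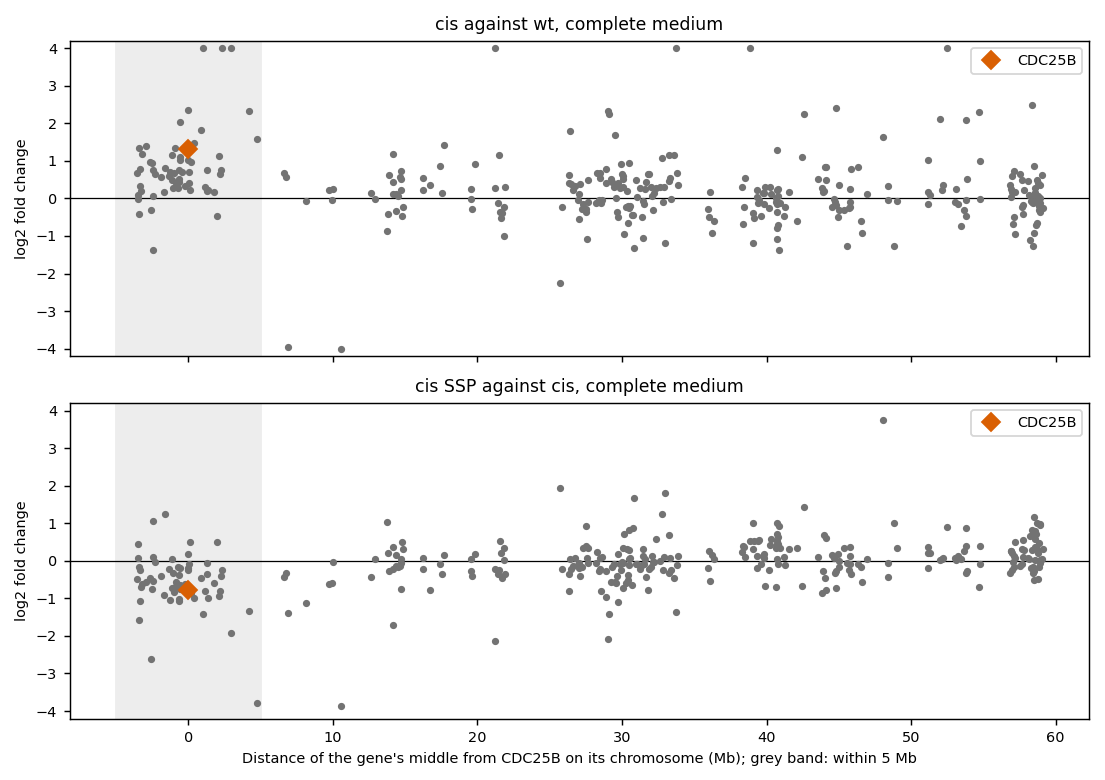
Log2 fold change (y axis) of 331 genes on the chromosome of CDC25B by distance of the gene's middle from CDC25B (x axis, Mb), in cis against wt cells (top) and cis SSP against cis cells (bottom), in complete medium; the grey band marks 5 Mb to each side and 8 values beyond 4 are drawn at the limit. Genes in the band sit mostly above 0 in the top panel (55 of 60) and mostly below 0 in the bottom panel (51 of 60), and CDC25B (orange) lies at 1.33 and -0.77.

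Over the 12 conditions each member had its own order. CHEK1 was lowest in wt -SG carbo (17.9 ± 0.679 CPM, SD, n = 3) and wt carbo cells (19.9 ± 1.15), which did not overlap, then rose through cis -SG carbo (44.6 ± 3.67), wt -SG (52.8 ± 2.78), cis -SG (61.1 ± 2.12) and wt cells (61.9 ± 1.25) to the cis SSP conditions and cis carbo cells, at 65.8 to 78.4, and to cis cells (90.7 ± 1.15). Of its 11 pairs of neighbours in this order, 4 overlapped. CDC25C was lowest in wt carbo (5.95 ± 0.409) and wt -SG carbo cells (6.01 ± 1.12), followed by cis -SG carbo (7.09 ± 0.666) and cis -SG cells (10.2 ± 0.176). The other 8 conditions, from cis carbo (18.8 ± 1.07) to cis SSP -SG cells (22.8 ± 2.7), overlapped from each to the next. WEE1 was lowest in cis SSP carbo cells (47.6 ± 2.57) and overlapped between neighbours up to cis cells (52.3 ± 1.1), and was highest in wt carbo (109 ± 1.52) and wt -SG carbo cells (112 ± 2.52), which overlapped each other and stood apart from cis -SG carbo cells (68.6 ± 3.24).

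CDC25A was lowest in cis -SG carbo (30.3 ± 2.86) and cis -SG cells (37.4 ± 0.903) and highest in cis cells (89.3 ± 2.98), which overlapped with wt (88.9 ± 3.13) and, over wt, with cis carbo cells (88.4 ± 1.75). CHEK2 shared this low end, with 26.2 ± 0.388 in cis -SG carbo and 29.5 ± 0.664 in cis -SG cells, then 34.3 ± 1.74 in wt -SG carbo and 38 ± 1.01 in wt carbo cells, each apart from the next, and 53.5 ± 2.04 to 60.6 ± 1.35 in the 8 other conditions. PKMYT1 ran from 18.2 ± 0.862 in wt carbo to 53.5 ± 5.48 in cis cells, with overlap in 9 of 11 pairs of neighbours. CDC25B ran from wt carbo (53.3 ± 2.58) and wt -SG carbo (54.3 ± 3.07) over wt (82.2 ± 1.41), wt -SG (85 ± 1.07) and cis -SG carbo cells (107 ± 5.19) to the 4 cis SSP conditions (118 to 129), cis -SG (135 ± 2.3), cis carbo (201 ± 0.4) and cis cells (211 ± 6.43).

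ATR was lowest in the 4 cis SSP conditions (40.3 to 47.7) and highest in cis -SG (89.9 ± 3.26) and cis -SG carbo cells (106 ± 1.48), which did not overlap. TP53BP1 was lowest in cis -SG (116 ± 3.31) and cis -SG carbo cells (126 ± 6.54), followed by cis carbo (167 ± 2.28) and cis cells (173 ± 5.69), and highest in wt -SG cells (297 ± 8.65). ATM overlapped in 10 of the 11 pairs of neighbours. The gap was below cis -SG carbo cells (260 ± 27), and all other condition means lay between 128 and 186.

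The members were also compared by pattern, as the correlation of their mean log2 levels over the 12 conditions. The 12 conditions share lines and treatments and the 3 longest transcripts share the low libraries 11, 25 and 32, so these values are descriptions. CHEK1 and WEE1 had the most negative correlation (Pearson r = -0.96). CDC25A and CHEK2 had the most positive (0.93), followed by PKMYT1 with CHEK1 and CDC25C with CHEK2 (0.88 each), while ATM and ATR had 0.75. Of 9447 genes with a mean of at least 10 CPM, the most alike to CHEK1 were RFC4 (0.99), E2F1 (0.99) and HAUS3 (0.99), and those most alike to CDC25C were KIF18A (0.99), PRR11 (0.99) and MAD2L1 (0.99). For WEE1 they were SHOC2 (0.98), MKNK2 (0.98) and SMAD3 (0.97), for PKMYT1 RUSC1 (0.98), CENPO (0.97) and MCM10 (0.97), for CDC25A NT5DC2 (0.97), PHTF2 (0.97) and C5orf22 (0.96), and for CDC25B TDRD3 (0.99), MTDH (0.99) and NPM3 (0.98). CHEK2 was most like RAB3D (0.98), B4GAT1 (0.98) and SOAT1 (0.98), TP53BP1 like PTPRS (0.99), SMARCA1 (0.98) and SALL2 (0.97), and ATR like RC3H2 (0.97), COBLL1 (0.96) and VPS13B (0.96).

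**Figure D5:**
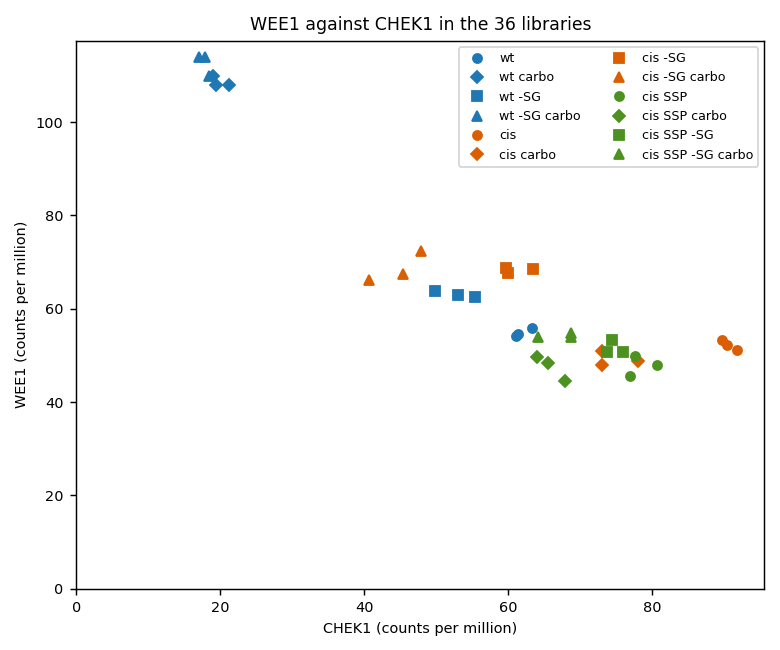
WEE1 against CHEK1 in CPM (both axes from 0) in the 36 libraries, with the line by colour and the treatment by symbol. The 6 carboplatin-treated wt libraries sit at the upper left, with WEE1 from 108 to 114 and CHEK1 from 17.1 to 21.2, and the 3 cis libraries in complete medium at the lower right, with WEE1 from 51.2 to 53.4 and CHEK1 from 89.7 to 91.9.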

How the data were processed

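Samples were grouped into 12 conditions by their labels, with 3 libraries each. The authors deposited raw counts per gene, made by alignment to GRCh37.p13 (STAR) and exon counting against GENCODE v19 (HTSeq). Treatment of reads with several alignments is not given in the sources used here. Rows that name no gene (3) were left out. Symbols and positions came from GENCODE v44 mapped to GRCh37 (55538 of 57820 identifiers).

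Each comparison was fitted with edgeR 4.0.16 (R 4.3.3) on its own conditions: TMM, filterByExpr, estimateDisp, robust glmQLFit and glmQLFTest, with Benjamini-Hochberg adjustment over all genes tested and calls at adjusted p under 0.05. Differences between responses were interaction terms. The SE is the absolute log2 fold change divided by the square root of F. The scripts were tested on simulated data. The 36 pairs of libraries within conditions had a mean chi-square over genes of 1.2 to 123, so no library was taken as a copy of another. This check cannot tell whether the libraries of a pair came from the same RNA. The members and gene lists were chosen with earlier results of these data known. By rule, all members, CDKN1A, CDK1 and CCNB1 are named, then per list the called gene that rose most and the one that fell most with carboplatin in wt cells in complete medium, and the 3 genes most like each member (log2 of CPM plus 0.5), of which those for ATM are not reported here. Figures were drawn with matplotlib 3.10.9. Alternatives were DESeq2 1.42.0 (the study's tool), its size factors, total counts, no filter, a minimum of 10 counts in each library, a single fit of the 36 libraries, each library left out, libraries 23 and 24 or 25 and 32 left out and, added after seeing the data, removal of the trend over transcript length.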

Additional observations from a re-analysis of the deposited data

Results flagged for a closer look

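The responses that differed between lines or media by the interaction test are given together, as differences of log2 fold changes. For carboplatin in complete medium, cis minus wt cells, they were 0.12 for ATR, 1.38 for CHEK1, 0.67 for CHEK2, -1.06 for WEE1, 0.93 for PKMYT1, 0.77 for CDC25A, 0.57 for CDC25B and 1.81 for CDC25C. For deprivation, cis minus wt cells, they were 0.33 for ATR, -0.31 for CHEK1, -0.80 for CHEK2, 0.21 for WEE1, -0.62 for CDC25A, -0.66 for CDC25B, -0.95 for CDC25C and -0.68 for TP53BP1. For carboplatin without minus with serine and glycine they were 0.71 for PKMYT1 and 0.54 for CDC25A in wt cells, and 0.42 for ATR, -0.22 for CDC25A, -0.20 for CDC25B and 0.25 for TP53BP1 in cis cells. CDC25A is the member that passed the test of the medium in both lines, with opposite signs. In cis cells its call was lost without library 16, with libraries 23 and 24 left out (-0.17) and in one fit over the 36 libraries, where 0 members passed in cis cells and 1, CDC25A, in wt cells. All 22 values rest on libraries called technical replicates, so they cover the spread between libraries only.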

How the results depend on the processing

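The count of members called, out of 10, was recomputed for the 16 comparisons. DESeq2's size factors, total counts, no filter and at least 10 counts in every library left every count within 1.5 times its main value. Counts that moved more were, with libraries 23 and 24 left out, 4 (carboplatin in cis -SG cells) and 2 (its difference from complete medium) and, with libraries 25 and 32 left out, 5 (deprivation of cis SSP cells). With one fit over the 36 libraries they were 4 (carboplatin in cis -SG cells), 1 (carboplatin in cis SSP cells), 2 (the same without serine and glycine), 2 (deprivation of cis SSP cells), 4 (cis SSP against cis), 1 (medium by carboplatin in wt cells) and 0 (the same in cis cells). DESeq2 gave 1 (carboplatin in cis SSP -SG cells) and 2 (cis SSP against cis). Removal of the length trend gave 2 (carboplatin in cis cells), 1 (cis SSP cells), 1 (cis SSP -SG cells) and 4 (cis SSP against cis). In the cis SSP comparisons with only library 25 or only library 32, leaving out both is the fit without that library. The share of all genes called also differed between fits. For deprivation of cis SSP cells it was 35.9% with libraries 25 and 32 left out, against 0.0218% with them. For most other alternatives this share is not given here, so the counts alone do not describe the members. The cause of these shifts was not tested.

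Leaving out each library gave, for carboplatin, 9 to 9 calls in wt, 6 to 9 in wt -SG, 1 to 2 in cis, 6 to 8 in cis -SG, 0 to 1 in cis SSP and 0 to 7 in cis SSP -SG cells. Deprivation gave 6 to 7 (wt), 9 to 10 (cis) and 0 to 0 (cis SSP), and the lines 5 to 7 (cis against wt) and 1 to 9 (cis SSP against cis). The interactions gave 7 to 8 and 0 to 0 (carboplatin), 8 to 9 (deprivation), and 2 to 4 in wt and 3 to 8 in cis cells (medium). The share of all genes called moved too. Without library 32 it was 41.1%, against 1.47%, for carboplatin in cis SSP -SG cells. Without library 25 it was 41.2%, against 2.72%, for carboplatin in cis SSP cells, and 65.4%, against 29.1%, for cis SSP against cis cells. These ranges are therefore not read as results about the members. Among values called in either fit, signs turned for TP53BP1 with carboplatin in wt cells under total counts (-0.056), for ATM (-0.28), ATR (-0.16), CHEK2 (0.19) and TP53BP1 (-0.12) with carboplatin in cis SSP -SG cells without library 32, and for ATM in cis SSP against cis cells without library 25 (0.14). Uncalled values that also turned without library 25, with carboplatin in cis SSP cells, were ATM (-0.020), ATR (-0.053), CHEK2 (0.108), WEE1 (0.021), PKMYT1 (0.006), CDC25C (0.065) and TP53BP1 (-0.058). Total counts also moved the share of higher genes among those called from 48.4% to 61.1% for carboplatin in cis -SG cells, 72.4% to 60.3% in cis SSP cells, 83.6% to 73.3% for the difference between cis SSP and cis, and 48.9% to 62.5% for that between the media in cis cells. No paired analysis was possible because the labels give no replicate numbers shared between conditions.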
